A study of Mus musculus with 10 samples.

Results

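*Aqp1* encodes aquaporin 1, a plasma membrane channel that lets water cross the cell membrane along an osmotic gradient. It belongs to the aquaporin family, whose other members include strict water channels and aquaglyceroporins, which also pass glycerol. In blood vessels aquaporin 1 is a known marker of the endothelium of capillaries and venules, and it is also abundant in red blood cells. Endothelial cells (ECs) line both blood and lymphatic vessels, and lymphatic ECs (LECs) of the skin form blunt-ended capillaries that take up fluid, collecting vessels that carry it away and valves that keep it moving in 1 direction.

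The levels of *Aqp1*, 1 of 46517 genes counted, were followed in dermal ECs that had been sorted from the ear skin of 5-wk-old mice by podoplanin and CD31 and read 1 cell per well by Smart-Seq2. The 5 mutant mice were Cre+ Pik3caH1047R;Cdh5-CreERT2 animals, in which topical 4-OHT at 3 wk of age switches on the activating H1047R form of the PI3K catalytic subunit p110α in ECs of every vessel type, because *Cdh5* is a pan-endothelial driver. Of the 2 control mice, control 1 was an untreated C57BL/6J animal and control 2 a Cre- animal of the mutant strain given 4-OHT, so that the controls differed from each other in strain label and treatment. A further control mouse was not analysed here. The sort removed CD45+, CD11b+ and Ter119+ cells, the last of which are red cells. The gene had been chosen with its high level in *Ptx3*-positive LECs already known, so differences between cell classes are given below as descriptions without tests, and only the genotype was tested.

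After the filters on wells, 2524 mutant and 724 control cells remained. A cell was called an LEC when its summed *Prox1*, *Flt4* and *Mmrn1* reached 300 CPM (read counts scaled to the total of the cell) and exceeded its summed *Flt1*, *Emcn* and *Podxl*, and a blood EC (BEC) in the reverse case. This gave 1641 LECs, 1490 BECs and 117 wells that were neither. LECs with *Ptx3* at 100 CPM or more (544 cells, *Ptx3*-high) were set against the other 1097. *Ptx3* encodes a secreted pattern recognition protein that the study used to name a capillary LEC subtype. Valve LECs had *Cldn11* at 300 CPM or more (231 cells), collecting LECs were further cells with more *Mmrn2* than *Lyve1* (152 cells), and venous BECs had *Ackr1* plus *Selp* at 100 CPM or more (602 cells). The rules share cells, because 41 *Ptx3*-high LECs were also valve and 9 also collecting LECs. The remaining LECs were capillary cells by these rules, 494 of them *Ptx3*-high and 764 *Ptx3*-low. Not all markers outside the rules went with the labels. The LEC chemokine *Ccl21a* was at 945 CPM ± 36.5 in control LECs against 147 CPM ± 52.2 in control BECs, and the pan-endothelial *Cdh5* was read in both (194 CPM ± 4.51 and 511 CPM ± 58.0, mean ± SD, n = 2 mice). The BEC genes *Cd34*, *Plvap* and *Nos3* summed to 888 to 1008 CPM in control LECs and 3876 to 3881 CPM in control BECs. In mutants they summed to 1054 to 1414 CPM and 4486 to 5898 CPM. The arterial genes *Gja4*, *Gja5*, *Efnb2* and *Hey1* did not separate the lineages in controls, at 633 to 714 CPM in LECs and 497 to 651 CPM in BECs.

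In the GRCm38 annotation *Aqp1* (ENSMUSG00000004655) lies on the + strand of chromosome 6, from 55336432 to 55348555. Its 1 annotated transcript is protein coding and has 4 exons, of which exon 4 (55346618 to 55348555) holds 1938 of the 2627 exonic bases. No other annotated gene overlapped it, so reads counted to *Aqp1* were not shared with a neighbour. The summed reads behind a value were many: a mouse gave 21884 to 102273 *Aqp1* reads over its LECs and 84039 to 225485 over its BECs. The thinnest sums were those of collecting LECs, with 193 to 2532 *Aqp1* reads from 11 to 29 cells. Fewer cells with the transcript and less transcript per cell cannot be told apart in a summed value, so both the sum and the distribution over cells are given.

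*Aqp1* was a blood endothelial gene first. In BECs it stood at 2991 and 2049 CPM in the control mice and at 2692, 2378, 2387, 2398 and 2131 CPM in the mutant mice. In LECs it stood at 602 and 357 CPM in the controls and at 463, 529, 471, 536 and 526 CPM in the mutants. Every mouse had less in LECs than in BECs, by a mean log2 ratio of -2.42 ± 0.146 in controls (n = 2) and -2.25 ± 0.201 in mutants (n = 5).

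Within BECs the level followed the type of vessel. Venous BECs, which line the vessels through which leukocytes leave the blood, held 3410 and 3793 CPM in the controls and 3601, 2519, 2973, 2550 and 2647 CPM in the mutants. Other BECs held 2889 and 1827 CPM in the controls and 1634, 2219, 1787, 2263 and 1661 CPM in the mutants. Venous cells were the higher in 7 of 7 mice, although the 2 ranges overlapped between mice. The log2 ratio was 0.65 ± 0.58 in controls and 0.58 ± 0.41 in mutants.

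A further split of the other BECs, made after their values had been seen, found low cells more often among those with arterial markers. BECs whose summed *Gja4*, *Gja5*, *Efnb2* and *Hey1* reached 300 CPM (301 cells; these encode the arterial connexins 37 and 40, ephrin-B2 and a Notch target) held 1223 CPM ± 445 *Aqp1* in controls and 1117 CPM ± 265 in mutants. The 587 BECs left after that split held 3109 CPM ± 908 and 2261 CPM ± 262. The arterial-marker cells were the lower in all 7 mice. Only 36.3% ± 5.27 of them reached 300 CPM of *Aqp1* in mutants, against 74.5% ± 2.25 of the remaining BECs and 92.6% ± 1.83 of venous BECs. Without the arterial-marker cells the venous excess over remaining BECs shrank to a log2 ratio of 0.24 ± 0.54 in controls, where it was present in 1 of 2 mice, and 0.33 ± 0.35 in mutants, where it was present in 4 of 5.

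**Figure D1:**
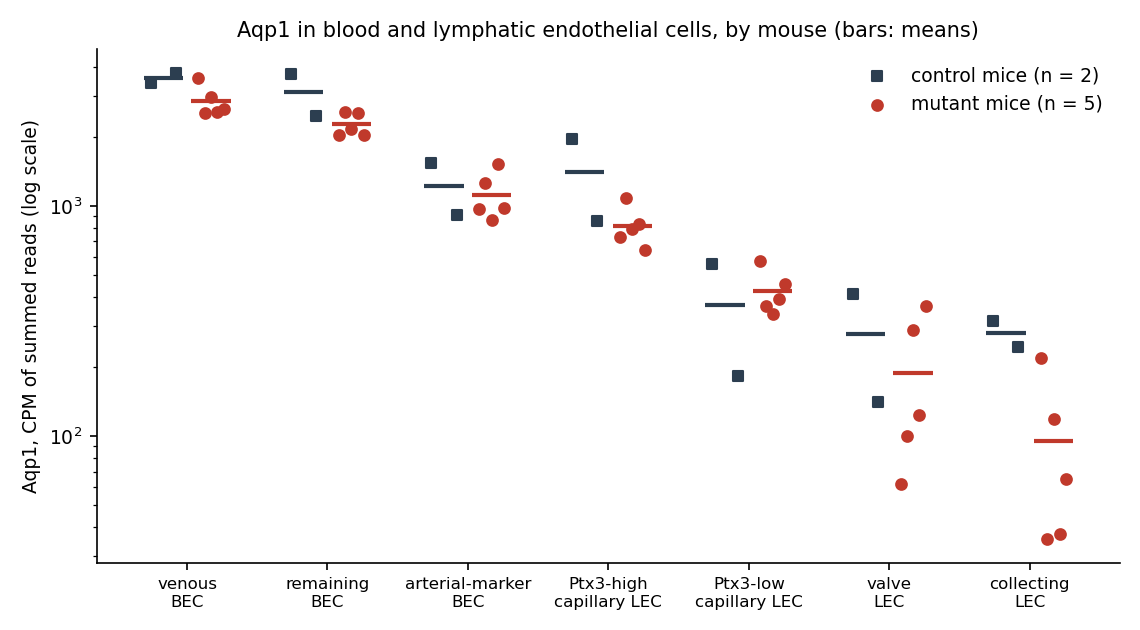
*Aqp1* level (y axis, CPM of reads summed over the cells of a class, log scale) in 7 cell classes (x axis); each point is 1 mouse (dark squares, 2 controls; red circles, 5 mutants) and each bar the mean of a genotype. Venous BECs sit highest, at 2519 to 3793 CPM, and collecting LECs lowest, at 35.5 to 316 CPM.

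Among LECs the *Ptx3*-high cells held the most *Aqp1*, which was the pattern the gene was chosen for. *Ptx3*-high LECs stood at 1960 and 799 CPM in the controls (12 and 44 cells) and at 632, 1034, 805, 799 and 648 CPM in the mutants (62 to 162 cells). Other LECs stood at 495 and 190 CPM in the controls and at 361, 259, 262, 283 and 411 CPM in the mutants. The log2 ratio within a mouse was 2.03 ± 0.0611 in controls and 1.32 ± 0.567 in mutants, and it was above 0 in 7 of 7 mice. *Ptx3*-high LECs still held less than BECs in every mouse, with a log2 ratio of -0.98 ± 0.53 in controls and -1.63 ± 0.32 in mutants.

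The capillary cells alone gave the same order. *Ptx3*-high capillary LECs held 1947 and 857 CPM in controls and 732, 1087, 797, 831 and 645 CPM in mutants. *Ptx3*-low capillary LECs held 560 and 182 CPM in controls and 574, 367, 339, 394 and 457 CPM in mutants. No *Ptx3*-low value reached the lowest *Ptx3*-high value of any mouse. Valve LECs followed with 412 and 140 CPM in controls and 61.7, 100.2, 288, 123 and 368 CPM in mutants, and collecting LECs with 316 and 244 CPM in controls and 218, 35.5, 118, 37.5 and 64.7 CPM in mutants. *Ptx3*-low capillary LECs exceeded valve LECs in 7 of 7 mice, but valve LECs exceeded collecting LECs in only 5 of 7, and the ranges of these last 3 classes overlapped.

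In cells pooled over the mice of a genotype, the step in median *Aqp1* did not sit at the 100 CPM limit that defined the class. In mutants, LECs just below it (*Ptx3* at 50 to 100 CPM, 37 cells) had a median of 650 CPM *Aqp1*, and LECs just above it (100 to 200 CPM, 67 cells) a median of 332 CPM. In controls these medians were 330 CPM (4 cells of 1 mouse) and 402 CPM (11 cells). The low cells lay further down: mutant LECs with *Ptx3* at 10 to 50 CPM (218 cells) had a median of 69.7 CPM, and those with none (217 cells) one of 25.6 CPM. At *Ptx3* of 500 CPM and above the medians were 666 CPM in 279 mutant cells and 1229 CPM in 24 control cells. Cells without the transcript in quantity remained in each bin, since 30.1 CPM marked the tenth percentile even among mutant cells at the highest *Ptx3*.

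**Figure D2:**
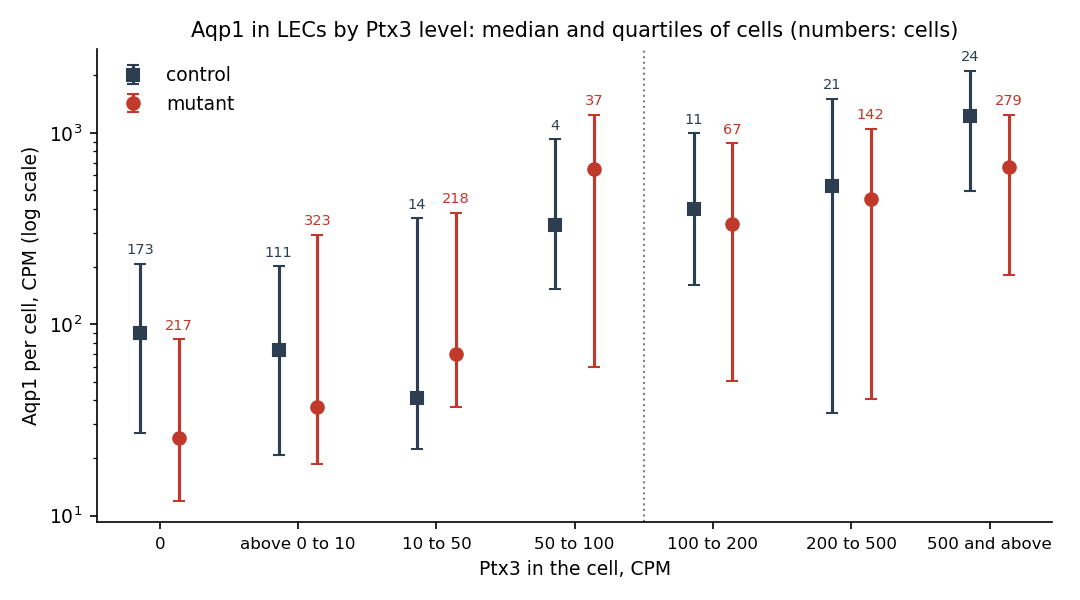
*Aqp1* per cell (y axis, CPM, log scale) in LECs grouped by their *Ptx3* level (x axis, CPM); points are medians over cells, bars span the lower to the upper quartile, numbers give the cells, squares are controls and circles mutants. The dotted line marks the 100 CPM limit of the *Ptx3*-high class; mutant medians rise from 69.7 to 650 CPM below that line.

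Low *Aqp1* values could not be read as expression. A read of *Aqp1* was found in 98.2% or more of the LECs of each *Ptx3* bin in mutants, and also in 38 of 38 wells that were neither LEC nor BEC and held *Krt5* plus *Krt14* at 1000 CPM or more, the keratins of basal keratinocytes, which should lack the gene. The median in other LECs moved plate by plate with the median in those keratinocyte-marker wells: 130 against 125 CPM in control 1, 21.7 against 24.1 CPM in control 2, 17.7 against 21.3 CPM on the first plate of mutant 3, 94.5 against 101 CPM on its second plate, and 66.9 against 71.1 CPM on the first plate of mutant 5. The 4 such wells of mutant 4 were an exception, with a median of 1206 CPM against 33.9 CPM in other LECs, and the plates of mutants 1 and 2 had none. In the wells of mutant 4 the median of the blood capillary gene *Cd36* was 788 CPM, against 12.0 CPM in its other LECs. On the other 6 plates low values in other LECs were of the size read in keratinocyte-marker wells, and that size differed between the 2 plates of 1 mouse, mutant 3. The lymphatic gene *Lyve1* showed a floor of the same kind in BECs, with medians of 78.1 CPM in control 1, 23.5 CPM in control 2 and 11.6 and 54.0 CPM on the 2 plates of mutant 3. The blood endothelial genes *Cd36* and *Flt1* matched less closely. On the first plate of mutant 5 the medians in keratinocyte-marker wells and other LECs were 34.8 and 13.6 CPM for *Cd36*. For *Flt1* they were 14.3 and 4.48 CPM. In control 2 they were close, at 17.3 and 16.9 CPM for *Cd36* and 2.63 and 3.29 CPM for *Flt1*. The source of the floor was not tested.

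**Figure D3:**
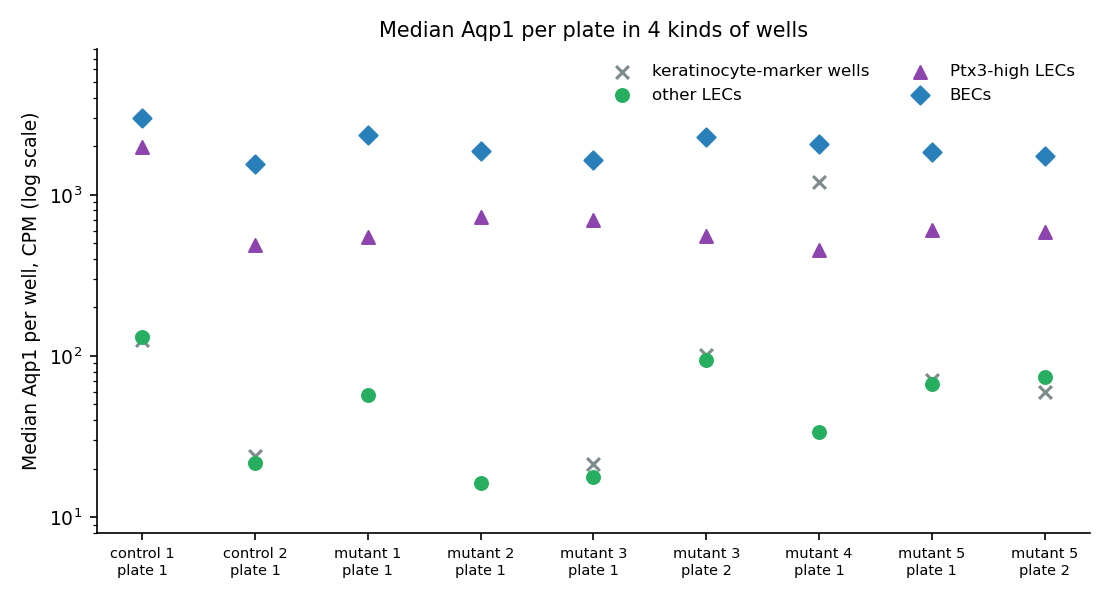
Median *Aqp1* per well (y axis, CPM, log scale) on each of the 9 plates (x axis) in keratinocyte-marker wells, other LECs, *Ptx3*-high LECs and BECs; kinds with fewer than 2 wells on a plate are left out. Other LECs lie on the keratinocyte-marker wells on 6 of the 7 plates that have both, mutant 4 being the exception, and on those 6 plates *Ptx3*-high LECs and BECs lie above them.

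For this reason the share of cells at 300 CPM or more was added, a limit set after the values had been seen. It was passed by 2 of 17 keratinocyte-marker wells in controls (11.8%, 95% Wilson interval 3.29 to 34.3%, counting error only) and 3 of 21 in mutants (14.3%, 4.98 to 34.6%). These wells were not free of endothelial transcripts. Their summed *Cldn5*, *Pecam1* and *Cdh5* were 72.1 to 431 CPM in controls and 202 to 928 CPM in the 2 mutants with at least 5 such wells. The part of endothelial material in the passing wells was not tested. Collecting LECs (12.7% ± 3.03 in controls, 7.96% ± 6.08 in mutants) and valve LECs (13.96% ± 4.85 and 15.02% ± 9.79) were near the shares of those wells by this measure. *Ptx3*-low capillary LECs, at 25.03% ± 13.3 and 32.2% ± 5.65, were higher but within those intervals. Mutant 4 gave 2 of the 3 passing mutant wells. Without its wells it was 1 of 17 (5.88%, 1.05 to 26.98%). The mutant *Ptx3*-low value, which kept mutant 4, lay above that interval. It was 2 of 12 (16.7%, 4.70 to 44.8%) without the wells of mutant 3. Without those of mutant 5, it was 3 of 13 (23.1%, 8.18 to 50.3%). The mutant *Ptx3*-low value lay within both of these intervals. *Ptx3*-high capillary LECs reached 81.7% ± 25.9 and 67.7% ± 5.50, and BECs 75.6% ± 7.83 and 76.6% ± 2.16. Few cells lay near the limit, 25 control and 84 mutant LECs being between 200 and 400 CPM.

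Few *Aqp1*-high LECs also held *Flt1*, the VEGF receptor gene of blood endothelium. Of the 106 control and 514 mutant LECs at 300 CPM *Aqp1* or more, 4 and 4 had *Flt1* at 100 CPM or more. Among all LECs it was 7 of 358 and 8 of 1283. The LEC rule itself limits *Flt1*, so these counts cannot test for blood endothelial material in LECs. Without the 2 *Flt1*-positive cells the *Aqp1* level of pooled *Ptx3*-high mutant LECs was 738 CPM against 736 CPM with them. The pooled control collecting LECs, in contrast, fell from 282 to 174 CPM with 1 such cell removed. Red cell transcripts were scarce: the 7 red cell genes of the list summed to 2.00 to 3.69 CPM in control LECs and 9.50 to 28.8 CPM in mutant LECs. Of the 5 tested in LECs, 1 passed and rose, beside 1.96% of all genes that rose. It was the globin gene *Hbb-bs* (edgeR adjusted p = 0.0383), whose reads are hard to separate from those of its close copy *Hbb-bt*. By edgeR 4 of the 5 had an unadjusted p under 0.05, beside 20.1% of all genes. The median of the 5 was 2.82 on the log2 scale.

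The genotype was then compared over the 5 mutant and 2 control mice, class by class, to ask whether the *Pik3ca* mutation moved *Aqp1*. It passed the threshold in none of the 9 classes and not in the test of LECs against BECs (edgeR quasi-likelihood test on summed reads, Benjamini-Hochberg adjusted over all genes tested). At an unadjusted p under 0.05 edgeR and DESeq2 each gave 2 classes, *Ptx3*-high and collecting LECs. By edgeR 23.9% and 5.54% of all genes tested reached that p in these 2 classes. Of all genes tested, edgeR called 2.76% in LECs, 2.12% in BECs, 5.03% in *Ptx3*-high LECs, 0.0536% in other LECs, 0.244% in *Ptx3*-low capillary LECs, 3.37% in venous BECs, 0.142% in other BECs and 0.191% for the difference between LECs and BECs. It called 0 genes in collecting LECs and 0 in valve LECs, where 740 and 1760 genes had an unadjusted p under 0.05 and DESeq2 called 197 and 909.

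In LECs as a whole *Aqp1* differed by a log2 fold change of 0.11 (SE 0.21, edgeR adjusted p = 0.815), and in BECs by -0.01 (SE 0.16, adjusted p = 0.977, edgeR). The LEC effect exceeded the BEC effect by 0.13 (SE 0.17, edgeR adjusted p = 0.870). The 5 mutant LEC values all lay between the 2 control values. An exact two-sided permutation test of the mouse values gave p = 0.667 for LECs and 0.857 for BECs; with 5 against 2 mice its lowest possible p is 0.0952.

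*Ptx3*-high LECs had less *Aqp1* in mutants, by -0.89 on the log2 scale (SE 0.34), without passing the threshold (adjusted p = 0.155, edgeR). That value rested on control 1, whose 12 *Ptx3*-high cells were all at 300 CPM or more. Without control 1 the log2 fold change was 0.05 (edgeR adjusted p = 0.921), and without control 2 it was -1.39 (adjusted p = 0.00917, edgeR). Control 1 also had the highest floor of the controls, and it was the untreated C57BL/6J animal. Marker genes of other cells moved with the same groups in *Ptx3*-high LECs. The 4 blood capillary genes summed to 418 to 534 CPM in controls against 37.8 to 104 CPM in mutants; of the 3 tested, *Gpihbp1* and *Cd36* fell (edgeR adjusted p = 0.00870 and 0.0108), beside 2.21% of all genes that fell, and *Car4* was at 0.178 to 0.244 CPM in controls. The 5 fibroblast genes summed to 276 to 773 CPM against 9.82 to 148 CPM, and 2 of them fell. The 5 mural genes summed to 83.9 to 373 CPM against 32.9 to 106 CPM. The part of these cells in the result was not tested.

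Other classes had wider errors. Collecting LECs differed by -1.53 (SE 0.63, edgeR adjusted p = 0.861) and valve LECs by -0.64 (SE 0.65, adjusted p = 0.722, edgeR). Over the alternative fits the collecting LEC value ranged from -2.06 to -0.66. Removing 1 *Flt1*-positive cell took the pooled control collecting LECs from 282 to 174 CPM. *Ptx3*-low capillary LECs differed by 0.21 (SE 0.39, edgeR adjusted p = 0.861), and it was 1.31 without control 1. Other LECs as a whole differed by -0.11 (SE 0.35, edgeR adjusted p = 0.918). Venous BECs differed by -0.30 (SE 0.17, edgeR adjusted p = 0.318) and other BECs by -0.27 (SE 0.21, edgeR adjusted p = 0.642). In venous BECs the 5 mutant values overlapped the 2 control values through mutant 1, at 3601 CPM. Here too fibroblast genes stood apart, at 1525 to 2735 CPM in control against 1.97 to 67.7 CPM in mutant venous BECs, and their part was not tested. Of these 5 genes 4 fell in mutant venous BECs, beside 1.05% of all genes that fell, and 4 in mutant BECs, beside 0.611%. Mural genes summed to 748 to 876 CPM in control against 175 to 320 CPM in mutant venous BECs.

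**Figure D4:**
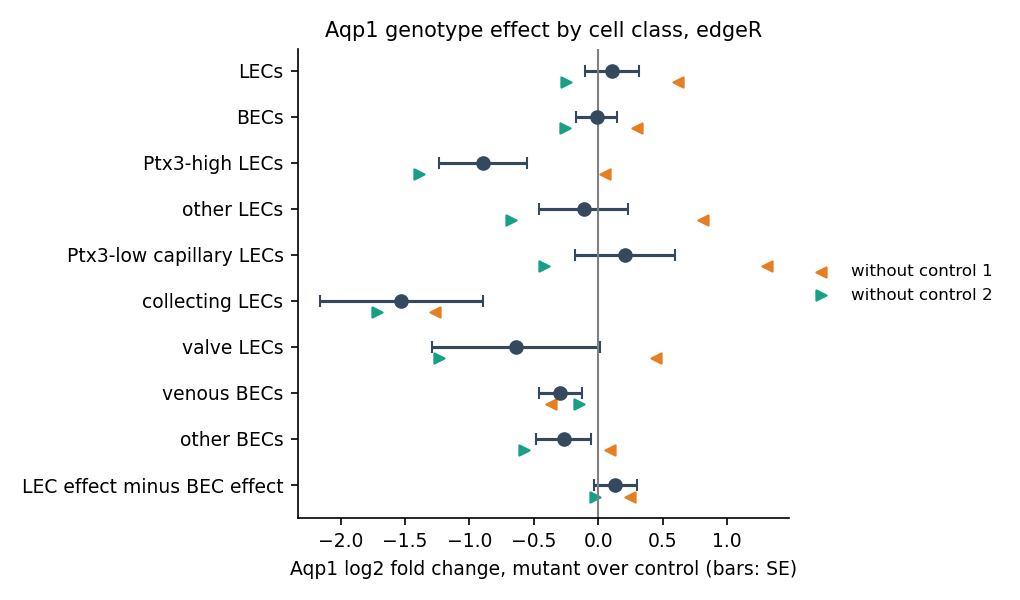
Log2 fold change of *Aqp1*, mutant over control (x axis), in 9 cell classes and for the difference between LECs and BECs (y axis); circles with bars are edgeR estimates with SE from 5 mutant and 2 control mice, and triangles the estimates without 1 of the controls. Leaving out control 1 moves 5 negative estimates above 0, and no estimate from all mice passed the adjusted threshold.

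By the share of cells at 300 CPM or more, LECs of mutants lay above those of controls, at 38.9% ± 5.46 (35.3 to 48.5%, n = 5) against 29.5% ± 5.39 (25.7 and 33.3%, n = 2). The groups did not overlap, at the lowest p the exact permutation test allows (0.0952). Among non-cycling LECs they did overlap, at 34.3% (30.3 to 44.6%) against 29.5% (25.7 to 33.3%, exact permutation p = 0.381). The share of venous BECs moved the other way, from 100% in both controls to 92.6% ± 1.83 in mutants, and so did that of other BECs, from 71.5% ± 7.89 to 62.0% ± 3.16 (exact permutation p = 0.0952 for each), while BECs as a whole were at 75.6% ± 7.83 and 76.6% ± 2.16. The rule for venous BECs took different shares of the BECs by genotype, 17.6% and 12.1% in controls and 39.1 to 55.7% in mutants. Plate sets were largely split by genotype, since both controls and mutant 5 came from 1 series of plate numbers and mutants 1 to 4 from another, so plate and genotype cannot be told apart for 4 of the 5 mutants. Mutant 5, from the plates nearest to the controls, had the highest share among mutants, at 48.5% of LECs.

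*Ptx3*-high cells were 6.56% and 25.1% of control LECs and 33.2 to 44.1% of mutant LECs. They supplied 23.9% and 61.5% of the *Aqp1* reads of control LECs and 51.2 to 73.0% of those of mutant LECs, so that control 2 lay within the mutant range and control 1, with 12 such cells, below it. The mean level within the class was 784 CPM ± 162 in mutants and 1380 CPM ± 821 in controls.

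Cells were called cycling by reads of at least 3 of the 7 cycling genes after each cell had been thinned to 50000 reads. By this rule cycling cells were found in quantity only in mutants, with fewer than 5 cycling LECs or BECs in either control mouse. Cycling LECs of mutants held 719 CPM ± 127 *Aqp1* against 445 CPM ± 22.9 in non-cycling LECs, and were higher in 5 of 5 mice. Within the *Ptx3*-high class the 2 levels were 847 CPM ± 233 and 752 CPM ± 133, with cycling cells higher in 4 of 5 mice. In BECs the order was reversed, with 1543 CPM ± 348 in cycling and 2533 CPM ± 311 in non-cycling cells and lower values in cycling cells of 5 of 5 mice.

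*Aqp1* was the dominant aquaporin of both lineages. In RPKM, which scale reads to transcript length and library depth, it stood at 959 RPKM ± 254 in control BECs, 913 RPKM ± 75.7 in mutant BECs, 183 RPKM ± 65.8 in control LECs and 192 RPKM ± 13.4 in mutant LECs. The second was *Aqp7*, an aquaglyceroporin known from adipocytes, at 131 RPKM ± 1.65 in control and 71.1 RPKM ± 31.3 in mutant BECs. In LECs *Aqp7* was near its floor, at 4.12 RPKM ± 1.02 and 0.577 RPKM ± 0.540. *Aqp11*, an intracellular member, reached 11.7 RPKM ± 4.78 in control BECs and 8.53 RPKM ± 3.19 in mutant BECs. *Aqp3*, the aquaglyceroporin of the epidermis, was at 1.77 to 6.32 RPKM in the 4 group means, beside 334 RPKM ± 214 in the keratinocyte-marker wells of controls. The other 8 members, the lens gene *Mip* among them, each had a mean of 1.73 RPKM or less in LECs and BECs of both genotypes.

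*Aqp1* and *Aqp7* divided the blood vessels differently. In venous BECs, where *Aqp1* was highest, *Aqp7* stood at only 5.40 RPKM ± 4.83 in controls and 3.91 RPKM ± 2.83 in mutants. In arterial-marker BECs, where *Aqp1* was lowest, *Aqp7* stood at 162 RPKM ± 25.9 and 151 RPKM ± 62.5, and in the remaining BECs at 147 RPKM ± 36.4 and 129 RPKM ± 72.6. The venous range, 1.36 to 8.82 RPKM over 7 mice, did not overlap that of arterial-marker BECs, 72.7 to 200.4 RPKM.

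**Figure D5:**
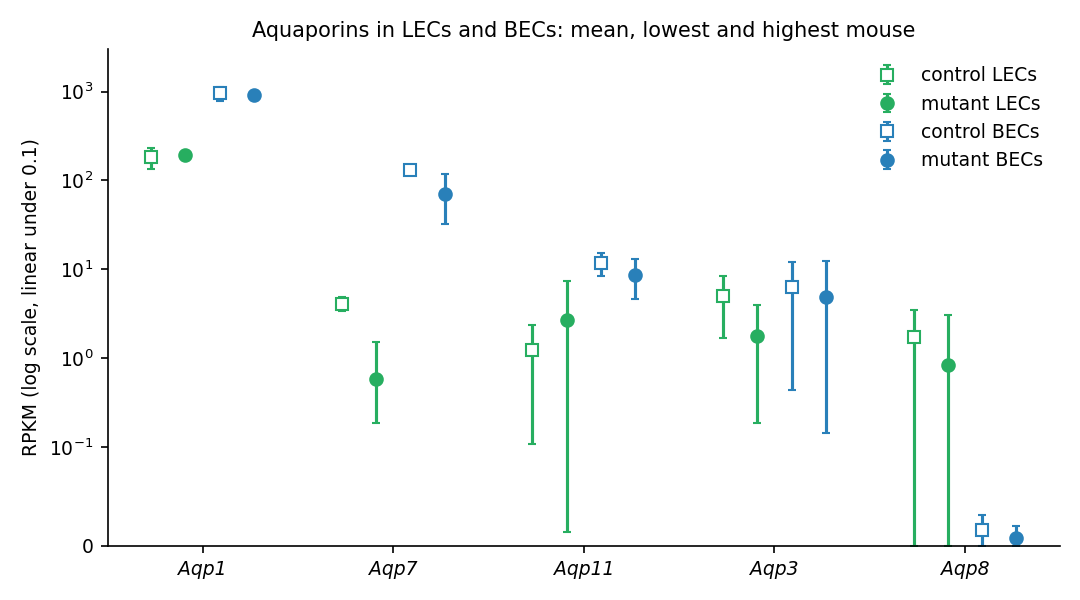
Level of 5 aquaporins (x axis) in RPKM (y axis, log scale, linear under 0.1); points are means over mice and bars span the lowest to the highest mouse, open squares are controls (n = 2), filled circles mutants (n = 5), green LECs and blue BECs. *Aqp1* is highest in each group, followed in BECs by *Aqp7*, at 131 RPKM in controls and 71.1 RPKM in mutants.

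None of the 12 aquaporins passed the genotype threshold in LECs (5 tested) or BECs (4 tested) by edgeR. The nearest was *Aqp7* in LECs, by -2.81 on the log2 scale (SE 0.76, edgeR adjusted p = 0.0880), at levels where the floor matters. Its BEC value was -0.82 (SE 0.38, edgeR adjusted p = 0.281). At an unadjusted p under 0.05 by edgeR there was 1 aquaporin in LECs and 0 in BECs, beside 20.1% and 19.6% of all genes.

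Genes that act beside a water channel were taken from lists. In cells under osmotic load, organic solutes are taken up and made under the transcription factor NFAT5. Of the 9 genes of that osmotic list, 8 were tested in LECs and none passed by edgeR (4 at an unadjusted p under 0.05, beside 20.1% of all genes), with a median log2 fold change of 0.26 beside -0.01 for all 19758 genes. In BECs 1 of 8 passed and rose, beside 1.51% of all genes that rose: *Slc38a2*, an amino acid transporter, went from 116 and 122 CPM (TMM-scaled) in controls to 189, 244, 214, 255 and 289 CPM in mutants (log2 fold change 1.00, SE 0.19, edgeR adjusted p = 0.0389). *Nfat5* itself did not pass in LECs (-0.67, SE 0.25, edgeR adjusted p = 0.186) or in BECs (-0.28, SE 0.23, edgeR adjusted p = 0.539). None of the 18 genes of ion, gas and mechanical transport passed in LECs or BECs by edgeR, with medians of 0.34 and 0.22; 7 and 4 of them had an unadjusted p under 0.05, beside 20.1% and 19.6% of all genes.

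Of the 17 hypoxia response genes, 2 rose in LECs and 3 in BECs, and none fell, beside 1.96% and 1.51% of all genes that rose. *Hif1a*, the oxygen-regulated transcription factor, went in LECs from 202 and 171 CPM (TMM-scaled) in controls to 322, 387, 518, 478 and 427 CPM in mutants (log2 fold change 1.19, SE 0.20, edgeR adjusted p = 0.0263). In BECs it went from 408 and 401 CPM to 654, 970.5, 991, 794 and 693 CPM (1.02, SE 0.20, edgeR adjusted p = 0.0412). *Pgk1*, a glycolytic enzyme, rose in both lineages (0.91, SE 0.19, and 1.39, SE 0.19; edgeR adjusted p = 0.0449 and 0.0117). *Ldha*, which makes lactate, rose in BECs (0.89, SE 0.13, edgeR adjusted p = 0.0172).

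*Aqp1* is also 1 of the 47 genes on a list of *Ptx3* capillary markers that the study drew up partly on these samples, so the list is no independent evidence. Of these, 11 rose and 1 fell in mutant LECs, beside 1.96% and 0.805% of all genes tested. In mutant BECs 6 rose, beside 1.51% of all genes. The medians of the list were 0.55 and 0.38 on the log2 scale, beside -0.01 and 0.01 for all genes. *Cd276*, an immune checkpoint protein, went in LECs from 20.7 and 35.2 CPM (TMM-scaled) to 75.4, 160.3, 134, 188 and 134 CPM (log2 fold change 2.31, SE 0.39, edgeR adjusted p = 0.0261). *Olfml2a* and *Ccnd1*, which encode an olfactomedin-like protein and cyclin D1, rose by 2.03 and 1.62 on the log2 scale, and *Ggct*, an enzyme of glutathione turnover, rose as well. *Gmfg*, an actin regulator of the glia maturation factor family, fell from 110.2 and 117 CPM to 35.1 to 50.0 CPM (-1.43, SE 0.18, edgeR adjusted p = 0.0107). In BECs *Mmp2*, a matrix metalloproteinase, rose from 214 and 179 CPM to 1367 to 1687 CPM (2.95, SE 0.15, edgeR adjusted p = 0.000534), followed by *Olfml2a* (2.07), *Igfbp4* (1.52) and *Cotl1* (1.5005).

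The genes whose levels ran most like that of *Aqp1* were sought over the 42 sums of 6 classes by 7 mice, among 10303 genes with a mean of 10 CPM or more that did not define a class. Pearson's r was computed on log2(CPM + 1). The 10 highest were *Meox2* (0.89), *Lcp1* (0.86), *Itih5* (0.82), *Lmo1* (0.82), *Exoc3l2* (0.81), *Dok4* (0.80), *Lrrc8c* (0.80), *Tmem47* (0.79), *Pik3r6* (0.79) and *Apol10b* (0.79). *Meox2* is a homeobox factor of blood endothelium, *Lcp1* bundles actin, *Lrrc8c* is a subunit of volume-regulated anion channels and *Pik3r6* a regulatory subunit of PI3Kγ. With the mean of each mouse removed, r was 0.91 for *Meox2* and 0.90 for *Lcp1*. The sums share mice, plates and the contrast between LECs and BECs, so these values describe a shared layout across classes.

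Over the 28 sums of the 4 LEC classes alone, another 10 of 10085 genes led. They were *Sgms2* (0.81), *Pld5* (0.78), *Pik3r6* (0.76), *Exoc3l* (0.74), *Hecw2* (0.74), *Rassf5* (0.73), *Asap1* (0.73), *Otub1* (0.72), *Bean1* (0.72) and *Sorbs2* (0.72). *Pik3r6* was on both lists of 10. *Sgms2* makes sphingomyelin at the plasma membrane, *Asap1* is an Arf GTPase-activating protein and *Sorbs2* an adaptor of the actin cytoskeleton, and the last 2 are also on the study's list of *Ptx3* capillary markers.

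Across single cells, the rank correlation with *Aqp1* was taken within each of the 9 plates and averaged, a step added after values had been seen. In LECs it was highest for *Cd34* (mean Spearman's rho 0.42, 0.22 to 0.59 over plates), *Serinc2* (0.40), *Cotl1* (0.39), *Sparc* (0.39) and *Ptx3* (0.37), and lowest for *Fxyd6* (-0.41), *Serpine2* (-0.41) and *Tgm2* (-0.40). *Cd34* is a sialomucin usually read as a blood endothelial marker, and it rose in mutant LECs from 70.2 and 29.4 CPM to 355 to 624 CPM (edgeR adjusted p = 0.0134). In BECs it was highest for *Scarb1* (0.39), a lipoprotein receptor, *Eng* (0.38), *C1qtnf9* (0.38) and *Apoe* (0.35), and lowest for *Tgfbr2* (-0.27), with the arterial *Gja4* at -0.24 and the venous *Ackr1* at 0.30. These correlations rest on counts over the plate floor and carry no test.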

How the data were processed

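Single dermal ECs of ear skin were measured by full-length Smart-Seq2 in 384-well plates. The deposited files hold raw read counts per gene and well. Per the labels and the study's methods, the authors aligned reads to GRCm38 with TopHat 2.1.1, removed duplicates with SAMtools 0.1.18 and counted with featureCounts; the annotation version is not given in the sources used here. Smart-Seq2 has no molecular identifiers, so counts are reads and not molecules, and the method does not keep strand.

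A well was kept if it held 200 or more genes and 50000 or more reads and if mitochondrial genes took no more than 10%, after 92 spike-in rows had been set aside (0.217 to 0.897% of reads per plate). Median depth per plate was 219487 to 424655 reads per kept well. CPM was taken over all remaining genes, and RPKM by the gene lengths deposited. Doublets were not called: 1048 of 1641 LECs had a BEC marker sum of 300 CPM or more, because *Emcn* and *Podxl* are read in LECs. Identifiers were matched to symbols for 98.9% of 46517 genes. Reads were summed per mouse and class (at least 5 cells, both plates of a mouse added) and tested with edgeR 4.0.16 (TMM, filterByExpr, quasi-likelihood), Benjamini-Hochberg adjusted, called at 0.05. The mouse was the replicate. Alternatives were DESeq2 1.42.0, other scaling and filters, replicate and plate blocks, thinned cells, other class limits and leaving out each mouse. The fit was tested on simulated data.

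Genes named were *Aqp1*, list members called in LECs or BECs (up to 4 a direction by fold change) and the 10 genes most like *Aqp1*; others were named after their values were seen. *Aqp1*, the classes and the lists were chosen with earlier results of these data known. Mice, not cells, limit precision, and p-values measure the spread between these mice.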

Additional observations from a re-analysis of the deposited data

Results flagged for a closer look

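Among 18 sets of 5 mutant mice examined for a value far from the others, 2 stood apart; chance alone flags about 1 in 20 such sets. Both were mutant 5: 48.5% of its LECs and 35.1% of its other LECs had *Aqp1* at 300 CPM or more, against 35.3 to 37.5% and 20.8 to 23.0% in the other mutants. Both plates of this mouse gave such shares, 49.2% and 47.7% of LECs, and its plates were the deepest, with medians of 397348 and 424655 reads per kept well.

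*Aqp1* was also read in wells that no comparison used. These were the 79 wells that met neither the LEC nor the BEC rule and were not keratin-positive. They held 767 CPM over the 33 wells of controls and 1693 CPM over the 46 wells of mutants. The pooled keratinocyte-marker wells of controls held 121 CPM. Keratinocyte-marker wells of mutants held 58.1 to 404 CPM in 2 mice and 1361 CPM in the 4 wells of mutant 4. The 79 wells carry no cell type name here.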

How the results depend on the processing

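Of 202 alternative fits of the 10 genotype effects of *Aqp1*, 174 kept the direction and the side of the threshold, 27 changed direction and 1 passed the threshold, *Ptx3*-high LECs without control 2. Leaving out 1 mouse at a time, the log2 fold change ranged from -0.25 to 0.62 in LECs, -0.26 to 0.30 in BECs, -1.39 to 0.0516 in *Ptx3*-high LECs, -0.68 to 0.82 in other LECs, -0.42 to 1.31 in *Ptx3*-low capillary LECs, -2.06 to -1.27 in collecting LECs, -1.23 to 0.45 in valve LECs, -0.39 to -0.15 in venous BECs, -0.58 to 0.0933 in other BECs and -0.0219 to 0.24 for LECs against BECs. Other changes of direction were, in LECs, -0.0611 with cells thinned to 50000 reads, -0.0369 without cycling cells and -0.32 without cells high for both marker sums. In BECs they were 0.0243 with no filter, 0.12 with the replicate block, 0.0238 thinned, 0.0693 without cycling cells, 0.0359 without cells high for both sums and 0.0378 without *Prox1*-positive BECs. In other LECs they were 0.25 with plate series as a block, 0.0184 with the replicate block and 0.26 on plates numbered from 8 or 9. In *Ptx3*-low capillary LECs the thinned value was -0.0535, and in valve LECs the plate series block gave 0.29 and plates numbered from 8 or 9 gave 0.27. For LECs against BECs the values were -0.0386 thinned, -0.10 without cycling cells and -0.32 without cells high for both sums. The cause of these changes was not tested. Collecting LECs kept their direction, with values from -2.06 to -0.66 over all alternatives.

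The *Ptx3*-high over other LEC ratio of controls moved to 1.93 as a mean over cells, 1.95 thinned, 1.82 without cells high for both sums, 2.18 with marker sums of at least 1000 CPM, 2.09 with a *Ptx3* limit of 50 CPM and 1.91 for shares of cells; it was 1.99 to 2.07 without 1 mouse, and 1.14 to 1.48 in mutants. The LEC over BEC ratio of controls moved to -1.63 without cells high for both sums, -2.57 with sums of at least 1000 CPM and -1.36 for shares, and that of mutants to -2.50 as a mean over cells, -2.51 thinned, -2.50 without cycling cells, -1.93 without cells high for both sums and -0.99 for shares; without 1 mouse they were -2.52 to -2.31 and -2.30 to -2.17. The venous over other BEC ratio was 0.24 to 1.05 in controls and 0.44 to 0.68 in mutants without 1 mouse.

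Counts of called genes depended on the test. They went from 546 to 2472 by DESeq2, 178 with plate series as a block, 3 with the replicate block and 72 without cycling cells in LECs; from 410 to 2238, 54 and 0 with the same first 3 in BECs; from 843 to 2926, 24 and 40 in *Ptx3*-high LECs; and from 568 to 2806, 19 and 2 in venous BECs. Between mice of the same number the correlation of deviations was -0.05 and -0.02 in LECs and 0.01 and 0.13 in BECs. The deviations of 2 controls from their mean mirror each other, so these values cannot decide whether such mice were paired.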
